A study of Mus musculus with 4 samples.

Results

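Natural killer (NK) cells are lymphocytes that kill without a rearranged antigen receptor. They read target cells through germline receptors, among them NKp46 (gene Ncr1), the Ly49 family (Klra genes), which binds MHC class I (MHC-I), and the NKR-P1 family (Klrb1 genes). These receptors do not define NK cells alone, because gamma-delta T cells, NKT cells and some CD8+ T cells also carry them. T cells are told apart by the CD3 chains, which assemble with the T-cell receptor. Of the receptor constant chains, Trac belongs to the alpha-beta receptor and Trdc to the gamma-delta receptor. Trdc transcripts alone do not identify a T cell, as they were also found here in barcodes without CD3 transcripts.

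Tumor-infiltrating cells positive for surface CD3 and CD8 (TI-CD8+) were sorted from Myc-CaP tumors, which arise from a prostate cancer line of the mouse, grown s.c. in male FVB mice. There were 4 libraries, 1 for each group. Combo mice received oxaliplatin (Oxali) at 6 mg/kg and anti-PD-L1 (aPD-L1) at 10 mg/kg, Oxali mice and aPD-L1 mice received the single agents at the same doses, all i.p. and weekly for 3 to 4 weeks, and Ctrl mice carried the same tumors and are labelled only as controls. How many mice each library pooled is not given in the sources used here, so no difference between groups has a replicate check.

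The barcodes described here were chosen by their UMI counts (unique molecular identifiers, 1 for each captured RNA molecule). Barcodes with 500 or more genes and no more than 10% of UMIs from mitochondrial genes were kept, and a kept barcode was selected with 2 or more UMIs of Ncr1, Klra7 and Klrb1c together and at most 1 UMI of the macrophage genes C1qa, C1qb and C1qc. Of 5508 barcodes, 4948 were kept and 73 were selected, 1.48% of those kept. They are compared with the 3752 other C1q-low barcodes of the same libraries, which had no UMI of the 3 genes. All 3 genes lie outside the T receptor loci (GRCm38, GENCODE M21 annotation). Ncr1 is a protein-coding gene on chromosome 7 (positions 4337724 to 4345164), while Klra7 (130218605 to 130233322) and Klrb1c (128778485 to 128789215) are protein-coding genes of the NK receptor cluster on chromosome 6.

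Most of them carried T receptor transcripts, which the label NK-like leaves out. The 6 T receptor genes Cd3d, Cd3e, Cd3g, Trac, Trbc1 and Trbc2 together gave 5 or more UMIs in 70 of the 73 barcodes, and 63 had 2 or more CD3 UMIs (Cd3d, Cd3e and Cd3g). The barcodes are therefore called Ncr1/Klra7/Klrb1c barcodes below. Only 10 had at most 1 CD3 UMI. Whether RNA of a second cell in the same barcode, or stray RNA, added to these counts was not tested.

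The libraries held 1324, 1426, 1642 and 1116 barcodes and 5796654, 5980118, 6340015 and 5443036 UMIs in Combo, Oxali, aPD-L1 and Ctrl. The selected barcodes were deeper than the others, with a median of 4903 UMIs (range 1531 to 22542) against 2841.5 UMIs, and a rule that asks for 2 UMIs favors deep barcodes. Of all barcode sequences, 2 occurred in more than 1 library, and none of them was selected. Scrublet, a doublet caller, marked 32 of the 4948 kept barcodes (0.647%), of which 2 were selected. Intervals below are 95% exact intervals and cover counting error only.

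Combo had the highest share of Ncr1/Klra7/Klrb1c barcodes. They were 31 of 1177 kept barcodes in Combo (2.63%, Clopper-Pearson interval 1.80 to 3.72), 12 of 1261 in Oxali (0.952%, 0.493 to 1.66), 17 of 1468 in aPD-L1 (1.16%, 0.676 to 1.85) and 13 of 1042 in Ctrl (1.25%, 0.666 to 2.12). The share in Combo was 2.11 times that in Ctrl (1.07 to 4.40), whereas Oxali over Ctrl (0.763, 0.318 to 1.81) and aPD-L1 over Ctrl (0.928, 0.425 to 2.08) had intervals on both sides of 1. These shares rest on the counts that chose the barcodes and on 1 library each, so no test was made. When every barcode was thinned to 1500 UMIs before the rule, the Combo to Ctrl ratio was 4.14 (1.36 to 16.8). It was 1.63 (0.807 to 3.51) when 1000 genes were asked for and mitochondrial UMIs were limited to 5%, 1.46 (0.955 to 2.26) with 1 UMI as the limit and 2.01 (0.955 to 4.53) when no C1q UMI was allowed, and all 3 of these intervals reach below 1.

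**Figure D1:**
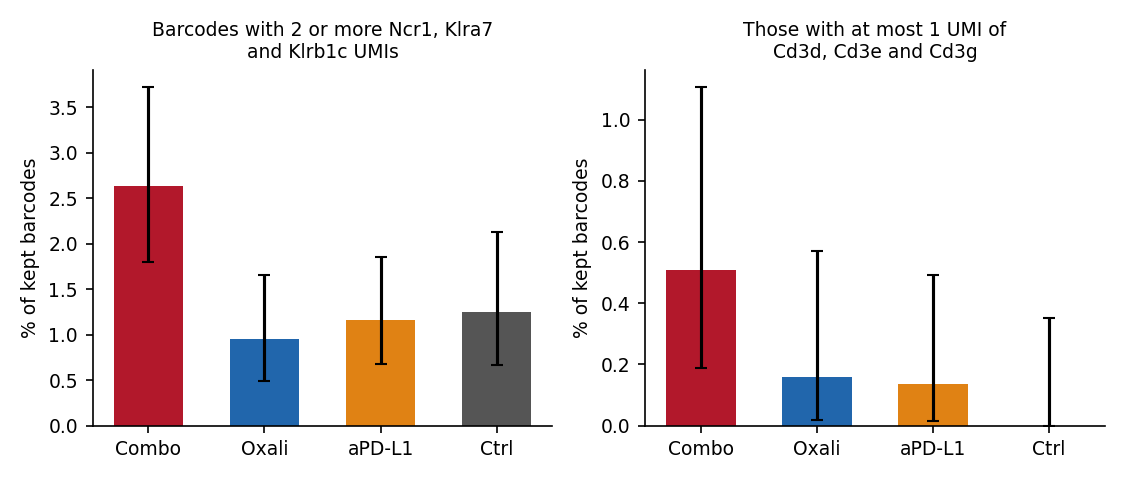
Share of kept barcodes in each library (% of kept barcodes, bars; whiskers, 95% Clopper-Pearson intervals, counting error only). Left, all Ncr1/Klra7/Klrb1c barcodes, highest in Combo at 2.63%; right, those with at most 1 CD3 UMI, of which Combo had 6, Oxali 2, aPD-L1 2 and Ctrl 0.

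Most of the selected barcodes sat close to the limit of the rule. Exactly 2 UMIs of the 3 genes were found in 26 barcodes, 3 UMIs in 18, and 5 or more in 21, with a maximum of 29. Ncr1 was seen in 48 barcodes, Klrb1c in 35 and Klra7 in 30, and 6 carried all 3 genes. The 26 barcodes just inside the limit had 2146 CD3 UMIs per 1000000 UMIs of the summed barcodes (CPM) and 5 of them lacked Cd8a and Cd8b1, while the 104 C1q-low barcodes with 1 UMI, just outside, had 2283 CPM and 12 of them lacked both. Of the 21 barcodes with 5 or more UMIs, 6 had at most 1 CD3 UMI and 8 lacked Cd8a and Cd8b1, compared with 298 and 389 of the 3752 other barcodes.

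A further 35 kept barcodes (16 in Combo, 9 in Oxali, 6 in aPD-L1 and 4 in Ctrl) had 2 or more UMIs of the 3 genes but over 1 C1q UMI and were left out by the rule.

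The CD3-bearing barcodes fell into 3 kinds by their receptor chains, beside those with little CD3. These kinds were defined after the values were seen and are a description without a test. Trac was present, with 2 or more CD3 UMIs and fewer than 5 Trdc UMIs, in 43 barcodes (14 in Combo, 7 in Oxali, 12 in aPD-L1 and 10 in Ctrl), and 36 of these also had Cd8a or Cd8b1. Another 15 had CD3 but neither Trac nor 5 Trdc UMIs, and 12 of them had Cd8a or Cd8b1. Because only 74.1% of the other C1q-low barcodes had a Trac UMI, these 15 cannot be placed by Trac alone.

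Trdc reached 5 or more UMIs in 5 CD3-bearing barcodes, 3 in Combo and 2 in Ctrl. Their Trdc counts were 26, 19 and 6 UMIs in Combo and 18 and 15 UMIs in Ctrl. None had Cd8b1, 2 had Trac, 1 had Cd8a with 3 UMIs, and 4 of the 5 carried a gamma constant chain (Tcrg-C1, -C2 or -C4). Their CD3 level was 2964 CPM, against 2684 CPM in the other C1q-low barcodes.

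In the 10 barcodes with at most 1 CD3 UMI, 6 were from Combo, 2 from Oxali, 2 from aPD-L1 and 0 from Ctrl. The count of 0 among 1042 kept barcodes of Ctrl allows a share of up to 0.288% when 3 counts are taken as the limit (exact upper limit 0.353%), and the Combo share was 0.510% (0.187 to 1.11). All 10 had Ncr1 and none had Trac, 8 had no CD3 UMI at all, and 9 lacked both Cd8a and Cd8b1. They included the highest sums of the 3 genes, 29, 28 and 12 UMIs, all in Combo. Surface CD3 and CD8 were the gate of the sort, and the transcripts counted here do not measure surface protein.

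Trbc1 and Trbc2 encode the alternative constant regions of the beta chain. In the 10 barcodes Trbc1 made up 52 of 62 constant-chain UMIs (83.9%, Clopper-Pearson interval 72.3 to 92.0), and 8 of them had at most 1 Trbc2 UMI. In the 43 barcodes with Trac the Trbc1 share was 36.2% (32.6 to 39.96), and in the other C1q-low barcodes it was 32.3% (31.9 to 32.8). The 6-gene sum therefore counts Trbc1 in barcodes without CD3, which is why none of the 73 fell in the class of 0 to 1 UMI while 10 did so by Cd3d, Cd3e and Cd3g alone. Of the 90-base windows in the last 500 bases of annotated Trbc1 transcripts, 29.6% also occur in Trbc2, so part of the reads cannot be assigned by those bases. Among barcodes with 5 or more UMIs of the 2 genes, over 90% came from 1 gene in 13 of 63 selected barcodes (20.6%). This was so in 1121 of 2678 other C1q-low barcodes (41.9%). What part barcodes with RNA of more than 1 cell have in this was not tested.

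Of the 4 kinds, the 10 barcodes had the highest level of other NK genes. A list of 13 further NK markers summed to 4650 CPM in them, to 1781 CPM in the 43 Trac-bearing barcodes and to 720 CPM in the other C1q-low barcodes. At least 3 of the markers were found in 9 of the 10 and in 22 of the 43. They were also found in 7 of the 15 with CD3 only, 2 of the 5 with high Trdc and 2.40% of the others. Tyrobp held 93 and Fcer1g 61 of the 220 list UMIs in the 10, and 6601 and 2751 of 10465 in the others. In 177 barcodes with the plasmacytoid dendritic markers Siglech and Ccr9, which carry Tyrobp and Fcer1g too, the list summed to 4943 CPM but only 9.04% had 3 of the markers. Fcer1g and Tyrobp, adaptors through which NK receptors signal, were present in 10 of 10, at 1289 and 1966 CPM. Klra4, an activating Ly49 receptor gene, had 21 of its 36 UMIs in these 10 barcodes, and the perforin gene Prf1 had 36 of its 86. Prf1 was at 761 CPM in the 10 barcodes and at 0 UMIs in the 5 CD3-bearing barcodes with high Trdc. Those 5 summed to 28340 UMIs, so a count of 0 allows up to 130 CPM and does not show that Prf1 was absent. Ikzf2, Cd5 and Pdcd1 had no UMI in any of the 10. Macrophage and monocyte markers gave 4 UMIs in all, in 3 of the 10.

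**Figure D2:**
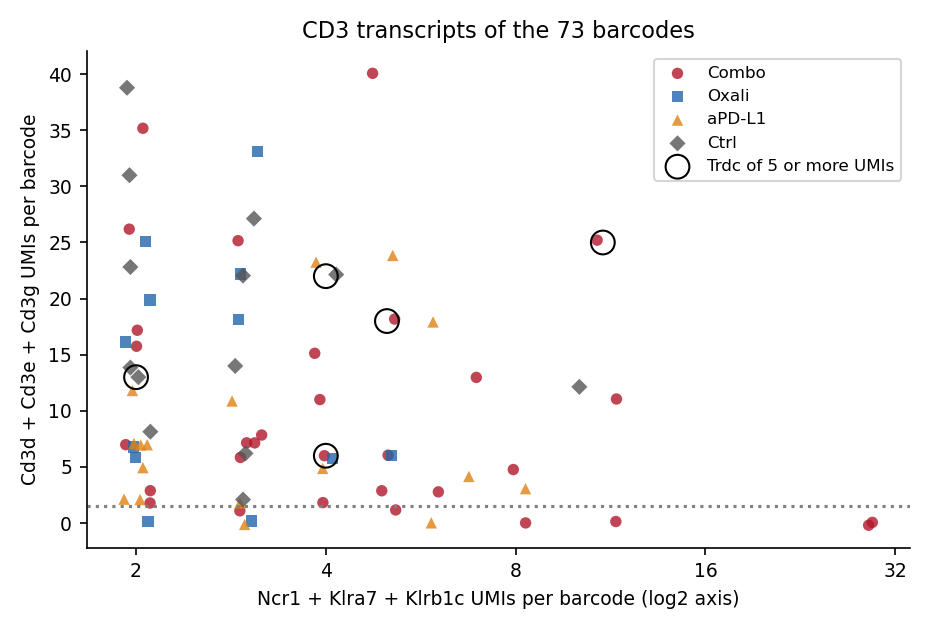
Each point is 1 of the 73 barcodes, with its Ncr1, Klra7 and Klrb1c UMIs (x axis, log2) against its Cd3d, Cd3e and Cd3g UMIs (y axis), shaped and colored by library and spread slightly to separate ties. Circles mark the 5 CD3-bearing barcodes with 5 or more Trdc UMIs. The 10 points under the dotted line, 6 of them in Combo and none in Ctrl, include the 2 with the highest sums, 29 and 28.

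Invariant NKT cells use 1 fixed alpha chain, Trav11 joined to Traj18, and the transcription factor PLZF (Zbtb16). Neither segment gave a UMI in the 73 or in the 3752 barcodes. Zbtb16 had 3 UMIs in 2 of the 73 barcodes (6.93 CPM) and 38 UMIs in 25 of the 3752 others (2.61 CPM), too few to be tested. Variable and joining segments of any kind were seen in 17.8% of the selected barcodes and 17.9% of the others, so in these 3′ libraries their absence could not be shown for a single barcode.

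Depth was equalized by drawing 1500 UMIs from each barcode, which kept all 73 selected barcodes and 3435 of the 3752 others. A CD3 UMI was then found in 67.7%, 83.3%, 76.5% and 100% of selected barcodes in Combo, Oxali, aPD-L1 and Ctrl, against 91.3%, 92.0%, 94.1% and 88.9% of the others. The selected barcodes were thus lower in 3 libraries and higher in Ctrl (exact paired permutation test over 4 libraries, two-sided, p = 0.375). In kept barcodes with tumor or stromal genes (35 barcodes, median 5732 UMIs, 31 with enough UMIs to thin), taken here to lack CD3, the thinned share was 6.45%. The name tumor or stromal refers only to Krt7, Sparc and Cldn3, the genes that chose them. Of the other listed tumor and stromal genes, Krt18, Epcam and Pecam1 had 0 UMIs in these 35, Krt8 had 4 and Col1a1 had 3. In 176 plasmacytoid barcodes (median 5777 UMIs) the thinned CD3 share was 33.0%.

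Trac and CD8 were lower in all 4 libraries. Trac was found in 27.5 ± 10.4% of selected barcodes and 56.0 ± 6.16% of the others (SD, n = 4 libraries), and Cd8a or Cd8b1 in 56.2 ± 13.7% and 81.7 ± 2.99%. Fcer1g was found in 65.4 ± 6.40% of selected barcodes and 10.3 ± 1.70% of the others, and Trdc in 15.0 ± 2.21% and 2.42 ± 0.330%, both higher in 4 of 4 libraries. In each of these 4 genes or pairs the exact paired permutation p was 0.125, the smallest that 4 libraries can give. Without thinning, the pooled shares were 61.6% for Trac, 68.5% for Cd8a or Cd8b1, 82.2% for Fcer1g and 31.5% for Trdc in the selected barcodes, against 74.1%, 89.6%, 15.99% and 3.07% in the others. The thinned shares of the tumor or stromal barcodes were 0% for Trac, CD8 and Trdc and 3.23% for Fcer1g, and those of the plasmacytoid barcodes were 17.0% for Trac, 77.8% for CD8, 0.568% for Trdc and 49.4% for Fcer1g.

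**Figure D3:**
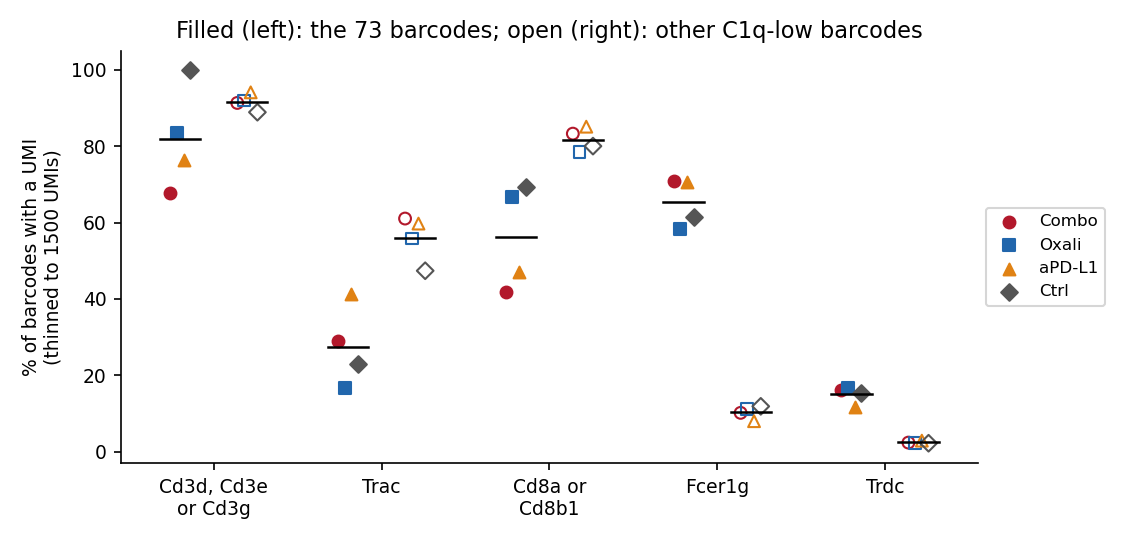
Percentage of barcodes with a UMI after thinning to 1500 UMIs, 1 point per library with the mean of 4 libraries as a line; filled symbols are Ncr1/Klra7/Klrb1c barcodes and open symbols the other C1q-low barcodes. Trac and CD8 were lower, and Fcer1g and Trdc higher, in the selected barcodes of every library.

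UMIs were next summed within each library and compared between Ncr1/Klra7/Klrb1c barcodes and other C1q-low barcodes over the 4 libraries with edgeR's quasi-likelihood test, with library as a block and the 6 rule genes left out. Of 8450 genes, 44 were higher (0.521%) and 103 lower (1.22%) at a Benjamini-Hochberg adjusted p under 0.05, and the median log2 fold change of all genes was -0.10. These counts depend on the model. DESeq2 called 23 higher and 15 lower, all 38 of them called the same way by edgeR, a fit without the library block called 14 and 5, and leaving out Combo gave 22 and 40. Values below are CPM, with edgeR adjusted p.

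Of 11 tested genes in the list named inhibitory and MHC-I receptors, 5 rose and none fell (list median log2 fold change 1.64). The name of the list does not give the function of each gene in it. Klrb1b, an inhibitory NKR-P1 receptor, had 64.3, 16.5, 62.0 and 38.0 CPM in the selected barcodes of Combo, Oxali, aPD-L1 and Ctrl, against 2.19, 0.535, 0.503 and 0.948 CPM in the others. The groups did not overlap (log2 fold change 5.18 ± 0.63 SE, edgeR adjusted p = 2.3e-13). It rests on 22 UMIs in 16 selected barcodes and 15 UMIs in the others, and it neighbors Klrb1c, a gene of the rule. Of the 90-base windows in its last 500 bases, 14.0% also occur in the gene model Gm44511 and none in Klrb1c.

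Klri2, a receptor that pairs with Klre1, had 48.2, 32.9, 112 and 28.5 CPM in the selected barcodes, against 5.20, 1.34, 1.51 and 2.21 CPM in the others (log2 fold change 4.10 ± 0.56 SE, edgeR adjusted p = 1.7e-10). Klre1 was higher by 1.87 ± 0.32 and Klra1, another Ly49 gene, by 2.62 ± 0.51 on the log2 scale, each in 4 of 4 libraries. Klrd1 (CD94) was higher by 0.67 ± 0.17, a call held in 7 of 13 alternative fits. Klra3, Klra5, Klra6 and Klra9 had at most 10 UMIs each in all 73 barcodes. Ly49 genes differ between mouse strains, and reads of FVB mice were counted on the reference genome, so the split among Klra genes is uncertain.

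Of 6 tested activating receptor genes, 2 were higher. Klrk1 (NKG2D) had 568, 247, 508 and 218 CPM in the selected barcodes, against 191, 120, 166 and 133 CPM in the others (log2 fold change 1.15 ± 0.19 SE, edgeR adjusted p = 2.5e-07). Cd244 (2B4) had 123, 49.4, 86.8 and 57.0 CPM, against 19.97, 12.9, 12.1 and 9.48 CPM (2.43 ± 0.40, edgeR adjusted p = 3.1e-07). Both genes were higher in every library without overlap.

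Fcer1g was higher in each library as well. It had 1003, 412, 583 and 731 CPM in the selected barcodes of Combo, Oxali, aPD-L1 and Ctrl, against 189, 209, 163 and 199 CPM in the others (log2 fold change 1.69 ± 0.17 SE, edgeR adjusted p = 5.0e-20). The 7-gene macrophage and monocyte list was at 118, 115 and 124 CPM in the selected barcodes of Combo, Oxali and aPD-L1, below the 498, 699 and 693 CPM of the others, and at 2508 CPM against 1164 CPM in Ctrl, where 3 selected barcodes held 253 of the 264 UMIs. The part of the list in the Fcer1g difference was not tested, and the Fcer1g call held in 13 of 13 alternative fits, 1 of them without those 3 barcodes.

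Tyrobp did not pass against all other C1q-low barcodes (log2 fold change 0.41 ± 0.16 SE, edgeR adjusted p = 0.26). These others include 174 plasmacytoid barcodes, which held 76.8% of their 6601 Tyrobp UMIs. In a fit added after the data were seen, without these 174 and without 34 barcodes with tumor or stromal genes, Tyrobp was higher in the selected barcodes, with 1126, 412, 508 and 712 CPM in Combo, Oxali, aPD-L1 and Ctrl, against 95.03, 144, 93.5 and 147 CPM in the others (log2 fold change 2.40, edgeR adjusted p = 2.0e-16). That fit called 59 genes higher and 85 lower, 106 of them also called in the same direction against all others.

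Of the 6 T receptor genes, 4 fell and none rose (list median log2 fold change -0.62), as did 6 of 15 T signaling genes (-0.76). Trac had 268, 428, 248 and 342 CPM in the selected barcodes, against 695, 557, 667 and 469 CPM in the others (log2 fold change -1.08 ± 0.18 SE, edgeR adjusted p = 3.0e-07), with no overlap. Cd3e fell by 0.76 ± 0.18, Cd3d by 0.65 ± 0.16 and Trbc2 by 0.60 ± 0.14 on the log2 scale, but these calls held in 8, 9 and 10 of 13 alternative fits and none of them by DESeq2. Trbc1 had values of 838 ± 189 CPM and 901 ± 96.6 CPM (SD, n = 4 libraries; edgeR adjusted p = 0.64). The signaling genes that fell included Cd5, Lat, Bcl11b, Tcf7 and Lef1, of which Bcl11b and Lef1 held in 3 of 13 alternative fits.

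The CD8 chains differed in size of change. Cd8b1, the beta chain of the conventional CD8 coreceptor, had 172, 329, 297 and 399 CPM in the selected barcodes, against 876, 769, 908 and 705 CPM in the others (log2 fold change -1.67 ± 0.18 SE, edgeR adjusted p = 6.5e-18). Cd8a, which can also form a homodimer, had 279, 461, 434 and 465 CPM, against 796, 613, 698 and 576 CPM (-0.91 ± 0.17, edgeR adjusted p = 1.6e-05). Neither gene overlapped between the classes, and the difference between the chains was not tested. Leaving out the 10 barcodes with at most 1 CD3 UMI left Cd8b1 at -1.56 and Trac at -0.95, both still called. The Cd8a call held in 10 of 13 alternative fits and that of Cd8b1 in 13 of 13.

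**Figure D4:**
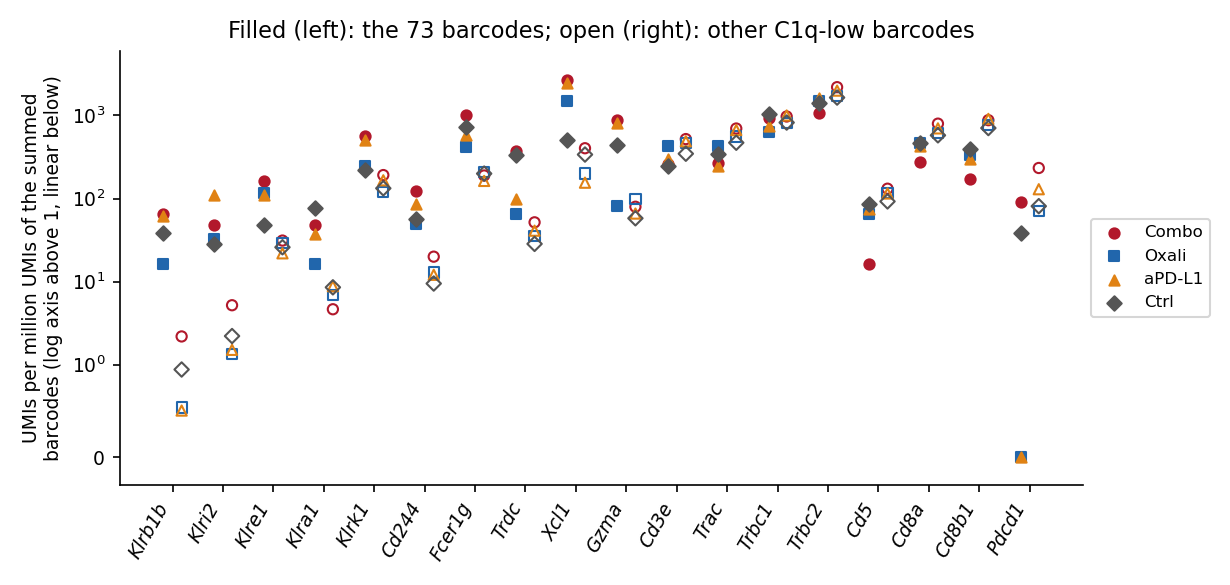
Levels of 18 genes in CPM (log axis above 1, linear below), 1 point per library; filled symbols are Ncr1/Klra7/Klrb1c barcodes and open symbols the other C1q-low barcodes. NK receptor genes, Fcer1g and Trdc were higher and Trac, Cd8a and Cd8b1 lower in all 4 libraries.

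Trdc rose, with 370, 65.9, 99.2 and 332 CPM in the selected barcodes against 51.7, 35.6, 41.0 and 28.4 CPM in the others (log2 fold change 2.35 ± 0.25 SE, edgeR adjusted p = 9.6e-18). Of its 116 UMIs, 84 came from the 5 CD3-bearing barcodes with 5 or more. Another 8 came from the 10 barcodes with at most 1 CD3 UMI, of which 1 in Combo had 5. The gamma constant chains were not called, and Tcrg-C4 had 36.4 ± 2.33 CPM and 11.6 ± 2.35 CPM (SD, n = 4 libraries; edgeR adjusted p = 0.15).

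Of the NK transcription factors, 3 of 12 were higher and none lower. Id2, required for NK cells and for innate lymphoid cells, was higher by 0.65 ± 0.17, Ikzf2 (Helios) by 1.04 ± 0.26 and Nfil3 by 1.37 ± 0.40 on the log2 scale. Nfil3 was higher in 3 of 4 libraries and its call held in 3 of 13 alternative fits. Ikzf2 stood at -0.094 when 3 UMIs of the rule genes were required. Eomes (76.3 ± 60.4 CPM and 40.3 ± 5.01 CPM) and Tbx21 (78.9 ± 18.6 CPM and 36.9 ± 8.47 CPM; SD, n = 4 libraries), the paired T-box factors of NK and effector T cells, did not pass (edgeR adjusted p = 0.27 and 0.18). Il2rb, the beta chain of the IL-2 and IL-15 receptors, was higher by 0.80 ± 0.19.

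Among effector genes, Xcl1, a chemokine that attracts cross-presenting dendritic cells, had 2697, 1483, 2442 and 503 CPM in the selected barcodes of Combo, Oxali, aPD-L1 and Ctrl, against 403, 200, 155 and 338 CPM in the others (log2 fold change 2.48 ± 0.16 SE, edgeR adjusted p = 3.4e-49). It was called in all 13 alternative fits and was present in 53 of the 73 barcodes. Gzma, a granzyme of killer lymphocytes, had 890, 82.4, 806 and 446 CPM, against 79.6, 99.3, 65.9 and 57.8 CPM (2.73 ± 0.19, edgeR adjusted p = 2.9e-43), higher in 3 libraries and within the range of the others in Oxali. DESeq2 did not call it (adjusted p = 0.096). Gzmc rested on 146 UMIs in 11 barcodes, with 30.1% of them in 1 barcode, and DESeq2 did not call it either (adjusted p = 0.99). Gzmk, a granzyme of memory-like T cells, had 0 UMIs in the 73 barcodes and 366 in the others. With the count of 0 set to a floor of 3 UMIs, it was 3.64-fold lower over the pooled UMIs (1.23 to 17.7).

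Gzmb and Prf1 were not called. Gzmb had 663 ± 465 CPM in the selected barcodes and 607 ± 360 CPM in the others, and Prf1 had 173 ± 70.7 CPM and 106 ± 27.0 CPM (SD, n = 4 libraries; edgeR adjusted p = 0.99 and 0.21). Of the chemokine genes, Ccl5 fell by 0.90 ± 0.13 and Ccl4 by 1.09 ± 0.18 on the log2 scale. Ccl5 was lower in 4 of 4 libraries and Ccl4 in 3, and DESeq2 called neither.

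Pdcd1, which encodes PD-1, had 91.1, 0, 0 and 38.0 CPM in the selected barcodes, against 233, 71.5, 129 and 80.9 CPM in the others (log2 fold change -1.89 ± 0.32 SE, edgeR adjusted p = 8.0e-07). It was lower within each library. Cd160, a receptor shared by NK and T cells, was higher by 1.15 ± 0.30. Of 12 interferon response genes 4 were lower, with Ly6a the largest at -1.38 ± 0.18 and Bst2 at 0.19 and not called once the plasmacytoid and tumor or stromal barcodes were left out of the others. Of 10 proliferation genes 3 were lower, Ube2c, Mki67 and Birc5.

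The remaining genes of the 10 largest rises were Cited4, Spry2, Rbpms and Tgm2. Cited4, a transcriptional coactivator, had 32.2, 82.4, 86.8 and 76.0 CPM in the selected barcodes, against 3.28, 2.94, 1.26 and 4.11 CPM in the others (log2 fold change 4.26 ± 0.53 SE, edgeR adjusted p = 6.6e-13), spread over 20 barcodes and called in 13 of 13 alternative fits. Spry2 and Rbpms had 12 and 20 UMIs. Tgm2 had 91.3% of its UMIs in 1 barcode, and without the 3 macrophage-bearing barcodes of Ctrl its log2 fold change was -0.90. The 10 largest falls included, besides Gzmk and Ube2c, Fgb, Wfdc12, Krt7, Cdkn2a, Pex19, Anxa3 and Fabp4, of which Fabp4 had 1 UMI and the other 6 had 0 UMIs in the selected barcodes. In the other barcodes a single barcode held 24.7% of the Fgb UMIs and 71.5% of the Fabp4 UMIs. The 34 tumor or stromal barcodes among the others held 91.5% of their Krt7 UMIs, 90.2% of Wfdc12, 89.1% of Fgb, 83.6% of Fabp4 and 60.1% of Cdkn2a. Krt7 is also a gene that chose those 34. Without them and the plasmacytoid barcodes, Fgb, Wfdc12 and Krt7 had too few UMIs to be tested, and Cdkn2a, Pex19, Anxa3 and Fabp4 did not pass (edgeR adjusted p = 0.26, 0.059, 0.10 and 0.68), whereas Gzmk and Ube2c were still called.

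To compare killer-type cells with each other, the same test was made among barcodes with 2 or more UMIs of Gzma and Gzmb. These were 38 selected barcodes (21 in Combo, 4 in Oxali, 6 in aPD-L1 and 7 in Ctrl) and 722 others. Of 4583 genes, 3 were higher (0.0655%) and 6 lower (0.131%). Fcer1g had 974, 287, 519 and 826 CPM in the selected barcodes, against 153, 90.9, 178 and 144 CPM in the others (log2 fold change 2.17 ± 0.27 SE, edgeR adjusted p = 0.00073), while Trdc rose by 3.13 ± 0.50 and Tyrobp by 1.92 ± 0.34 on the log2 scale, each in 3 of 4 libraries. The selected barcodes here include those with 19 and 6 Trdc UMIs in Combo and 15 in Ctrl described above. Their part in the Trdc call was not tested. Ube2c, Hmgb2, Top2a, Hist1h1b and Mki67, all genes of dividing cells, and Ifitm1 fell. Cd8a (-1.06, edgeR adjusted p = 0.065) and Cd8b1 (-1.205, edgeR adjusted p = 0.066) missed the threshold, as did Xcl1 (2.18, edgeR adjusted p = 0.061). Leaving out Combo, which held 21 of the 38 barcodes, left 0 calls (278 genes at an unadjusted p under 0.05), leaving out Ctrl gave 30 higher and 64 lower, and leaving out Oxali gave 9 higher and 7 lower.

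Treated libraries were set against Ctrl within the Ncr1/Klra7/Klrb1c barcodes by the CPM ratio of each gene with 20 or more UMIs in either library. A fold of 2 was used as the mark, and for the numbers of genes past it a count under 3 UMIs was set to 3. The ratios and intervals printed for single genes with 1 or 2 UMIs in Ctrl are those of the counts themselves, and the value at the floor of 3 is given beside them. With 1 library per group there is no test, and the intervals are exact binomial. In Combo 131 of 1442 genes were over the mark in the higher direction (9.08%) and 90 in the lower (6.24%). In Oxali 14 of 722 (1.94%) were higher and 125 (17.3%) lower, and in aPD-L1 15 of 752 (1.99%) were higher and 97 (12.9%) lower. All 3 comparisons share the 13 Ctrl barcodes. The selected barcodes summed to 186532, 60706, 80683 and 105282 UMIs in Combo, Oxali, aPD-L1 and Ctrl. A limit of 20 UMIs thus asks for a lower CPM in a deeper sum. Genes that passed it in 1 library only tend to stand higher in that library. The numbers higher and lower therefore depend on depth and are not read as effects of treatment. Without the 3 macrophage-bearing barcodes the genes over the mark were 202 higher and 48 lower in Combo, 45 lower in Oxali, and 33 higher and 33 lower in aPD-L1.

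Of the NK receptor genes, Klrk1 and Klrd1 had 20 or more UMIs in both Combo and Ctrl. The others reached 20 UMIs only in Combo, so their ratios are a description and no support. Klrk1, with 106 UMIs in Combo and 23 in Ctrl, had a ratio of 2.60 (1.64 to 4.28) beside 1.44 (1.28 to 1.63) in the other C1q-low barcodes. Klrd1 had a ratio of 1.60 (1.12 to 2.32) beside 1.53 (1.39 to 1.68). Klre1 had a ratio of 3.39 (1.30 to 11.2) beside 1.203 (0.898 to 1.62). Klra4, with 31 UMIs in Combo and 2 in Ctrl, had a ratio of 8.75 (2.23 to 75.4; 5.83 at the floor), and 35.5% of the Combo UMIs came from 1 barcode. Klrk1 was also past 2-fold in aPD-L1 (2.33, 1.36 to 4.06), whereas Oxali over Ctrl was 1.13 (0.549 to 2.26). Without the 3 macrophage-bearing barcodes of Ctrl the Klrk1 ratio was 1.88 in Combo and 1.68 in aPD-L1, and with 3 UMIs of the rule genes it was 1.45 in Combo and 0.957 in aPD-L1.

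CD8 genes stood lower in the selected barcodes of Combo than of Ctrl and higher in the others. Cd8b1 in Combo over Ctrl was 0.430 (0.263 to 0.698) in the selected barcodes and 1.24 (1.18 to 1.31) in the others, and Cd8a was 0.599 (0.398 to 0.904) and 1.38 (1.30 to 1.47). The 6 barcodes of Combo with at most 1 CD3 UMI had 1 UMI of Cd8b1 among them. The 3 macrophage-bearing barcodes of Ctrl, with 8368, 22542 and 18071 of its 105282 UMIs, had 7, 8 and 12 of its 42 Cd8b1 UMIs. They had 6, 3 and 6 of its 49 Cd8a UMIs. The Cd8b1 ratio thus depends in part on these barcodes.

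Xcl1 was higher in each treated library than in Ctrl, with ratios of 5.36 (4.03 to 7.25) in Combo, 2.95 (2.07 to 4.22) in Oxali and 4.85 (3.57 to 6.70) in aPD-L1. In the other C1q-low barcodes these ratios were 1.19, 0.592 and 0.458. A single barcode held 19.9% of the Xcl1 UMIs in Combo, 74.4% in Oxali and 53.3% in aPD-L1, and without the top barcode of each library the Oxali ratio was 1.29.

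The 5 highest ratios in Combo were Gzmc, Cxcl10, Serpinb9, Magohb and Rer1. Gzmc, with 131 UMIs in Combo and 1 in Ctrl, had a ratio of 73.9 (13.0 to 2942; 24.6 at the floor), with 33.6% of the Combo UMIs in 1 barcode, and in the others it was 0.393 (0.199 to 0.745). Serpinb9, a granzyme B inhibitor, had 41 UMIs and 1 UMI (23.1, 3.93 to 936; 7.71 at the floor). Gzmc and Serpinb9 reached the UMI limit of this comparison only in Combo, so their ratios are a description and no support. Cxcl10 had 47.8% of its Combo UMIs in 1 barcode. In Oxali the 5 highest were Cd82, Il7r, Xcl1, Nop10 and Gimap3, at 2.60 to 3.99. In aPD-L1 they were Crtam, Csf2, Car2, Xcl1 and Gbp7, of which Csf2 came from 1 barcode and Crtam to 85.2% from 1.

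The lowest ratios were macrophage genes and MHC class II genes: Ccl2, Chil3, Ccl24, Ccl7 and Fn1 in Combo, Cd74, Ccl2, Apoe, H2-Ab1 and Chil3 in Oxali, and Ccl2, Chil3, Arg1, Ccl24 and Apoe in aPD-L1. A single barcode held 95.8% of the Ccl2 UMIs and 79.5% of the Apoe UMIs of Ctrl, and without the 3 macrophage-bearing barcodes the Oxali ratio of Cd74, Ccl2, H2-Ab1 and Chil3 was 0.927 at the floor of 3 UMIs.

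Immediate early and heat shock genes encode activation-induced transcription factors and stress chaperones. All 10 with enough UMIs had them in Ctrl and only some in a treated library too, so they are given by single genes and not by a count. Jun, with 20 or more UMIs in each library, had ratios over Ctrl of 0.280 (0.212 to 0.368) in Combo, 0.266 (0.167 to 0.407) in Oxali and 0.512 (0.378 to 0.688) in aPD-L1, beside 0.289, 0.243 and 0.329 in the other C1q-low barcodes. Junb, likewise, had 0.353, 0.506 and 0.746, beside 0.350, 0.459 and 0.451. Hspa1a had 198, 214 and 595 CPM in Combo, Oxali and aPD-L1, against 1596 CPM in Ctrl.

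**Figure D5:**
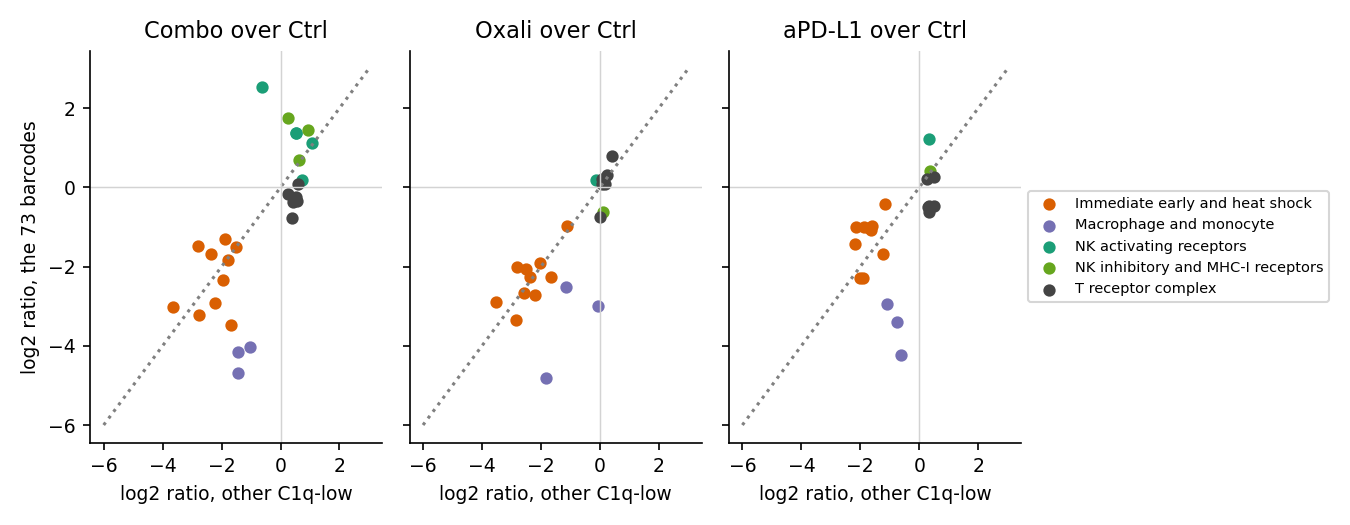
Log2 CPM ratio of each treated library over Ctrl for genes of 5 lists with 20 or more UMIs, in Ncr1/Klra7/Klrb1c barcodes (y axis) against the other C1q-low barcodes (x axis); the dotted line marks equal ratios, and each point is a gene. The plotted immediate early and heat shock genes, all with 20 or more UMIs in Ctrl, lay below 0 on both axes in each panel, and macrophage genes lay further below 0 in the selected barcodes, where 3 Ctrl barcodes held 253 of 264 macrophage list UMIs.

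Some cytotoxic genes stood lower in a single-agent library than in Ctrl. Gzma in Oxali over Ctrl was 0.184 (0.0573 to 0.462), with all 5 Oxali UMIs in 1 barcode, beside 1.72 in the others, and Gzmb in aPD-L1 over Ctrl was 0.221 (0.105 to 0.422) beside 1.63. Ccl5 in Oxali over Ctrl was 0.218 (0.158 to 0.296) beside 0.909, and it was 0.459 without the 3 macrophage-bearing barcodes of Ctrl. Trdc was lower in Oxali (0.198, 0.0512 to 0.554) and aPD-L1 (0.298, 0.120 to 0.654), the libraries in which no barcode reached 5 Trdc UMIs. It had 4 UMIs in Oxali, 8 in aPD-L1 and 35 in Ctrl, where 1 barcode held 18 and another 15. Gzma, Gzmb and Trdc reached 20 UMIs only in Ctrl in these comparisons, so their ratios are a description and no support.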

How the data were processed

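Per the labels, the authors sorted CD3+CD8+ tumor-infiltrating cells, prepared libraries with the Chromium 3′ kit (v3) and used Cell Ranger 3.1.0 with the mm10 build (GRCm38) per the submitters' processing notes. The deposited matrices hold raw UMI counts for 31053 genes per barcode, not normalized. The annotation release and further filters are not given in the sources used here. Barcodes, members and gene lists were chosen with earlier results of these data known. The same rule was applied in all 4 libraries.

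UMIs were summed per library and class and tested with edgeR 4.0.16 (R 4.3.3; TMM, filterByExpr, library block, Benjamini-Hochberg adjustment over all genes tested), with DESeq2 1.42.0 as an alternative. Because class sums come from 1 library per treatment, p-values measure the spread between these 4 libraries, which may be technical. On simulated counts for 8450 genes, edgeR called 59 of 100 genes changed 2-fold, 99 of 100 changed 4-fold and 5 of 8250 unchanged genes (changed genes had at least 40 expected UMIs in the selected barcodes). The simulated counts had the same spread for every gene and no library effect. These rates therefore do not cover genes with most UMIs in 1 barcode, and the rates for changed genes do not cover genes with fewer UMIs. CPM are UMIs per 1000000 UMIs of the summed barcodes. Thinning drew UMIs without replacement. Scrublet (scanpy 1.11.5, expected rate 5%) was used only as an alternative, and with 0.647% marked it gives little information on doublets. Tumor or stromal barcodes had 3 or more UMIs of Krt7, Sparc and Cldn3. Scripts ran in Python 3.11.15 with pandas 2.3.3, scipy 1.17.1 and matplotlib 3.10.9.

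Genes named were list members, the 10 highest and 10 lowest called fold changes, and the 5 highest and 5 lowest ratios per treated library, without rule genes, receptor segments, mitochondrial, ribosomal or hemoglobin genes and unnamed models. Gene IDs matched GENCODE M21 for 203 of 203 genes sought. A few genes that the rule names are not reported here.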

Additional observations from a re-analysis of the deposited data

How the results depend on the processing

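Barcode numbers and depth limit most values: each class sum of Oxali, aPD-L1 and Ctrl rests on 12 to 17 barcodes, and 1 barcode can hold most UMIs of a gene. In the comparison with other C1q-low barcodes (44 genes higher, 103 lower), leaving out 1 library gave 22 to 50 higher and 40 to 129 lower, DESeq2 gave 23 and 15, no library block 14 and 5, and 3 UMIs of the rule genes 22 higher. Among granzyme-bearing barcodes (3 higher, 6 lower), leaving out 1 library gave 0 to 30 higher and 0 to 64 lower, DESeq2 size factors gave 5 higher, the DESeq2 test 7 higher, no low-count filter 23 and 91, no library block 12 and 15, 3 rule UMIs 13 and 52, and no Scrublet-marked barcodes 10 and 20. The cause was not tested. Of the log2 fold changes, Ikzf2 was -0.094 with 3 rule UMIs, and Tgm2 was -0.90 without the 3 macrophage-bearing barcodes of Ctrl, an alternative chosen after seeing the data, as were leaving out barcodes with at most 1 CD3 UMI and classing by CD3 alone. Also chosen after seeing the data, leaving the plasmacytoid and tumor or stromal barcodes out of the others brought Bst2 to 0.19 and Ccr9 to 0.79, neither called, and made Tyrobp a call (2.40). Ccr9 is a gene that marks the barcodes left out.

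With a limit of 1 UMI the shares were 5.18%, 3.25%, 2.59% and 3.55% in Combo, Oxali, aPD-L1 and Ctrl, and after thinning before the rule 1.63%, 0.262%, 0.526% and 0.395%. Without the C1q limit they were 3.99% in Combo and 1.67% in Oxali, with 3 UMIs 0.476% in Oxali, and with the stricter gene and mitochondrial limits 2.13% in Ctrl. Shares of barcodes with a UMI move with depth by construction. At 2500 UMIs they were 87.3% for CD3, 42.9% for Trac and 30.2% for Trdc, at 1000 UMIs 37.0% for CD8 and 54.8% for Fcer1g, and unthinned 89.0% for CD3, 61.6% for Trac, 68.5% for CD8, 31.5% for Trdc and 82.2% for Fcer1g. After thinning, 71.2% had 5 or more T receptor UMIs and 47.9% lacked Cd8a and Cd8b1. By CD3 alone 13.7% had few T receptor UMIs.

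For treated over Ctrl, leaving out the top barcode of each gene gave 209 genes higher and 41 lower in Combo, 71 lower in Oxali and 47 lower in aPD-L1. With 3 rule UMIs 56, 32 and 23 were lower in Combo, Oxali and aPD-L1, and without the macrophage-bearing barcodes 202 were higher and 48 lower in Combo, 45 lower in Oxali, and 33 higher and 33 lower in aPD-L1. Scaling without stress, ribosomal and mitochondrial genes gave 24 higher in aPD-L1. Ratios that changed side with 3 rule UMIs included Ccl2 and Chil3 (1.16 each), Srgn (1.35) and Lyz2 (1.54) in Oxali, and Csf2 (0.622), Crtam (0.829), Klrk1 (0.957) and Srgn (1.76) in aPD-L1. Srgn was also 1.22 in Oxali and 1.28 in aPD-L1 without the macrophage-bearing barcodes, and 1.03 in aPD-L1 without the top barcode. No paired analysis was possible because each group is 1 library, and the library block of the class comparison is the only pairing.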

Other observations

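Among 8 genes of naive and memory T cells, 2 were lower in the Ncr1/Klra7/Klrb1c barcodes than in the other C1q-low barcodes and none was higher, with a list median log2 fold change of -0.37 beside -0.10 for all 8450 genes (edgeR). Klf2, a factor of quiescent T cells, had 241, 346, 446 and 712 CPM in the selected barcodes of Combo, Oxali, aPD-L1 and Ctrl, against 366, 598, 606 and 1026 CPM in the others (log2 fold change -0.74 ± 0.17 SE, edgeR adjusted p = 0.0015). S1pr1, a receptor for tissue exit, fell by 1.47 ± 0.41 on the log2 scale. It belongs to another list, NK maturation and homing, of which 2 of 9 tested genes were lower and 0 higher (list median log2 fold change -0.53). Dapl1, of the naive and memory list, fell by 1.19 ± 0.33. Klf2, S1pr1 and Dapl1 were lower in 4 of 4 libraries, and their calls held in 10, 7 and 6 of 13 alternative fits. B cell, granulocyte and erythroid markers had 0 UMIs in the 73 barcodes.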
